A study of Mus musculus with 8 samples.

Results

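Resting macrophages of 2 kinds were compared here, the cell type labelled hMPDM and bone marrow-derived macrophages (BMDM), both mouse (Mus musculus) and both unstimulated at 0 h. The libraries were chosen by their labels alone, which gave 3 of the 8 in the series, 1 of hMPDM and 2 of BMDM. The labels give neither strain, genotype, sex nor age for either, and they do not say what hMPDM abbreviates or how those cells were grown. BMDM were grown from bone marrow in L929-conditioned medium, so differences of culture and of cell type cannot be told apart. No allele or agent is named for the unstimulated libraries. The other 5 libraries were BMDM and hMPDM 3 h after lipopolysaccharide (LPS) and the macrophage-like line RAW in both states. They entered the fit, and the LPS libraries served as a second state in which to read the same genes. Polyadenylated RNA was sequenced, and the deposited values are raw read counts per gene.

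Macrophages take up and digest material, sense microbes through receptors such as TLR4, and depend on the growth factor CSF1, which L929-conditioned medium supplies. Even without stimulation they can hold interferon-stimulated genes at a low level through tonic type I interferon. That signal runs from the receptor through a complex of transcription factors, which binds a response element of repeated GAAA in the promoters of antiviral genes. Their lipid genes follow SREBP transcription factors for sterol and fatty acid synthesis and the sterol-sensing LXR receptors for cholesterol export.

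The BMDM libraries held 15671839 and 19307312 counts and the hMPDM library 15318338, with a read for 15583 to 16209 genes in each. A count of 0 allows up to 3 counts, which is 0.145 to 0.180 CPM (counts scaled to library size and by TMM) in these libraries. The BMDM replicates correlated at 0.997 across genes on the log2 scale and hMPDM with either at 0.972, and the fitted coefficient of variation between replicates was 2.27%. The counts table has another column headed as resting hMPDM, which matched no labelled sample and was not used here. Because hMPDM thus had 1 library, it has no replicate error: every SE and adjusted p below assumes that it varies as the BMDM pairs do. Nothing says that the BMDM replicates were separate cultures, so the p-values speak only of how far these samples vary, and that spread can be technical.

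Macrophage genes were expressed in both cell types, many of them at similar levels. All 30 lineage genes of a list were measured, with a median log2 difference (hMPDM minus BMDM) of 0.01, beside -0.0037 over all 12461 genes tested. Csf1r, the CSF1 receptor, stood at 1353 and 1296 CPM in the BMDM replicates and 1554 CPM in hMPDM. Lyz2, which encodes lysozyme, stood at 8902, 8657 and 8621 CPM, and the surface marker gene Adgre1 at 633, 618 and 658 CPM. The lineage factor Spi1 stood at 241, 256 and 224 CPM. These levels lay close together, with log2 differences of 0.23 (Csf1r), -0.03 (Lyz2), 0.07 (Adgre1) and -0.15 (Spi1). The mannose receptor gene Mrc1 was higher in hMPDM, at 4156 CPM against 2085 and 2056 CPM (log2 1.01, SE 0.04, adjusted p = 9.97e-19), and the transcription factor gene Maf at 701 against 367 and 379 CPM (log2 0.91, SE 0.042, adjusted p = 3.19e-17). The LPS co-receptor gene Cd14 was lower, at 166 against 391 and 395 CPM. Log2 differences over the 30 lineage genes ran from -1.32 to 1.01. By a test for a difference of more than 2-fold, 2 were lower (6.67%, against 2.76% of all genes) and 0 higher. Neither call survived a coefficient of variation of 10%. By adjusted p 10 of the 30 were higher (33.3% against 19% of all genes) and 11 lower (36.7% against 19.2%).

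Over all genes the resting cell types differed widely, mostly by small amounts. By adjusted p, 2371 genes were higher (19% of those tested) and 2395 lower (19.2%) in hMPDM, with a median size of difference of 0.20 on the log2 scale. The test against a fold of 2, used for the calls from here on, left 165 higher (1.32%) and 344 lower (2.76%). DESeq2 left 64 and 91 by the same kind of test, and a coefficient of variation set at 20% left 73 and 177, in each case a subset of the genes called in the edgeR fit. By a rule of size alone, at least 4-fold against both BMDM libraries and at least 5 CPM, 38 genes were higher (0.39% of 9742) and 85 lower (0.873%). The same rule set 1 gene apart between the BMDM replicates.

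**Figure D1:**
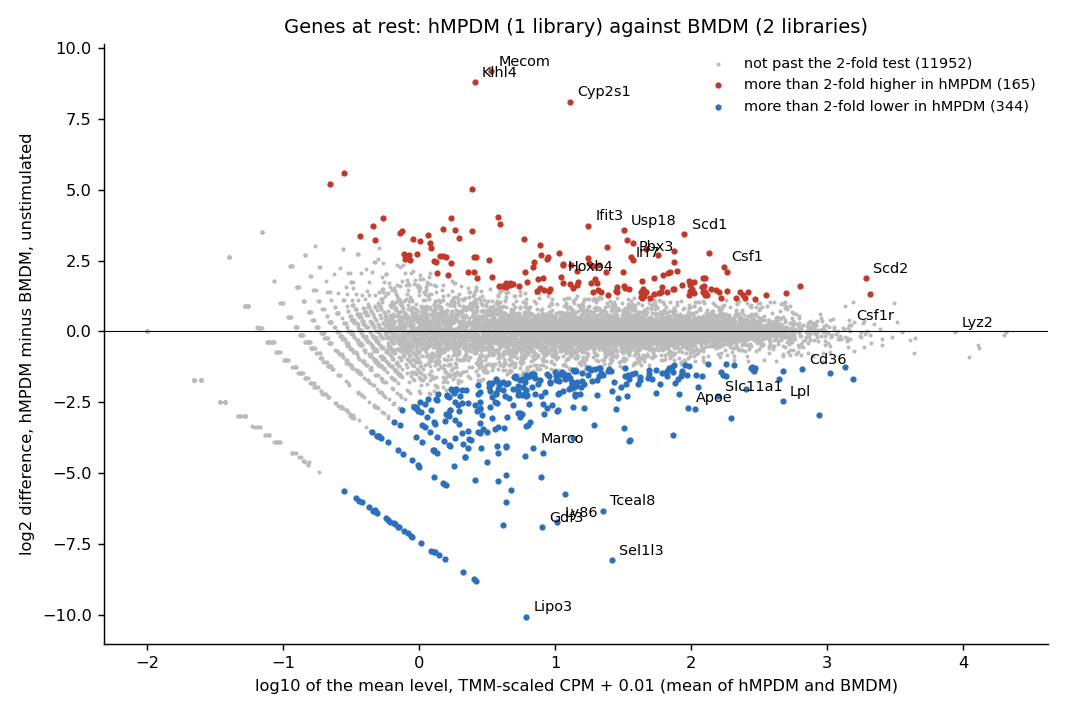
Each point is a gene: the horizontal axis gives log10 of its mean level in TMM-scaled CPM (plus 0.01) and the vertical axis the fitted log2 difference, hMPDM minus BMDM, at rest. The 165 genes more than 2-fold higher are red, the 344 more than 2-fold lower blue; the diagonal rows at low level on the left are genes with few or 0 counts in a group, and macrophage genes such as Csf1r and Lyz2 sit near 0.

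Genes that were on in one cell type and near silent in the other headed the list of higher genes. Mecom, which encodes a transcription factor of blood stem cells (ENSMUSG00000027684.12, chromosome 3, 29951296 to 30548008, mm10), had 0 reads in both BMDM libraries and 112 in hMPDM (6.73 CPM), at least 83.8-fold higher against 3 counts over the BMDM group. Klhl4, of the kelch-like family, had 0 and 0 against 85 reads (5.11 CPM), at least 63.6-fold higher by the same floor. The cytochrome P450 gene Cyp2s1 had 1 and 2 reads in BMDM and 423 in hMPDM (25.4 CPM), a ratio of 316.7 with a 95% counting interval of 107.6 to 1542. Neither BMDM library reached the hMPDM level of any of the 3 genes. Cp, the copper-carrying ferroxidase ceruloplasmin, stood at 0.359 and 0.484 CPM in BMDM and 7.21 CPM in hMPDM (log2 4.04, SE 0.28, adjusted p = 2.6e-10 against a fold of 2). The sialic acid hydroxylase gene Cmah stood at 1.02 and 1.16 against 10.7 CPM, the membrane protein gene Ms4a4a at 8.67 and 7.07 against 67.3 CPM, and Gpr34, a lysophospholipid receptor gene, at 1.37 and 1.94 against 13.9 CPM. Reads of Ms4a4a can be shared with similar family members. The calls for Cmah and Gpr34 ended with DESeq2.

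The interferon-stimulated genes were prominent on the higher side. Of 60 listed genes 58 were tested (Ifi44l fell below the count filter and Mnda was not analysed here), and 35 were more than 2-fold higher and 0 lower, 60.3% against the 1.32% of all genes. By adjusted p 55 were higher (94.8%, against 19% of all genes) and 0 lower (against 19.2%). In 57 of the 58 the hMPDM library lay above both BMDM libraries, Ifi209 being the exception, and the median log2 difference was 1.44. With the coefficient of variation set at 20%, 20 of the 58 passed the 2-fold test.

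Among their effectors, Ifit3, an antiviral RNA-binding family member (ENSMUSG00000074896.3, chromosome 19, 34583531 to 34588731, mm10), stood at 2.39 and 2.47 CPM in BMDM and 32.6 CPM in hMPDM (log2 3.74, SE 0.14, adjusted p = 4.74e-16 against a fold of 2). Its copies and neighbours Ifit3b (0.478 and 0.533 against 7.27 CPM), Ifit1bl1 (0.179 and 0.533 against 4.51 CPM), Ifit1 (4.48 and 6.06 against 42.6 CPM) and Ifit2 (10.5 and 11.2 against 82.1 CPM) were higher too. Ifit3 and Ifit3b are near-identical, so reads may be split between them in a way the counts do not show. The antiviral gene Oasl2 stood at 17.4 and 19.1 against 131 CPM. For each of these genes the hMPDM level lay well above both BMDM libraries. Regulators were higher too. Irf7, the transcription factor that amplifies the interferon response, stood at 6.81 and 6.25 against 60.5 CPM (log2 3.21, SE 0.092), and Usp18, an inhibitor of interferon receptor signalling, at 4.84 and 4.99 against 59.1 CPM (log2 3.58, SE 0.099).

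Other members of the pathway differed less or had no reads. Ifnb1, which encodes interferon beta, had 0 counts in all 3 resting libraries, which allows up to 0.145 to 0.180 CPM. The receptor genes Ifnar1 (154, 162 and 181 CPM) and Ifnar2 (86.5, 88.1 and 86.7 CPM) differed by log2 0.19 (adjusted p = 0.00204) and -0.01 (adjusted p = 0.911). Cxcl10, an interferon-induced chemokine, stood at 7.23, 6.54 and 7.93 CPM (log2 0.21, adjusted p = 0.314). At the median of the list, hMPDM at rest stood at 14.3% and BMDM at rest at 4.30% of the level in BMDM after LPS. Among MHC class I presentation genes, several of which interferon also induces, 16 of 18 were higher by adjusted p (88.9%, against 19% of all genes). In the same list 0 were lower (against 19.2%), and the median was 0.61. Tap1, the peptide transporter, stood at 53.7 and 49.9 against 105 CPM (log2 1.02) and the class I gene H2-K1 at 706 and 683 against 1069 CPM (log2 0.62). In that list 1 gene, H2-Q6, passed the 2-fold test, on 7, 8 and 37 reads and with close paralogs, and its call ended with DESeq2. MHC class II and costimulation genes had 3 of 16 higher (18.8%, near the 19% of all genes) and 8 lower (50% against 19.2%) by adjusted p. Their median was -0.13.

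**Figure D2:**
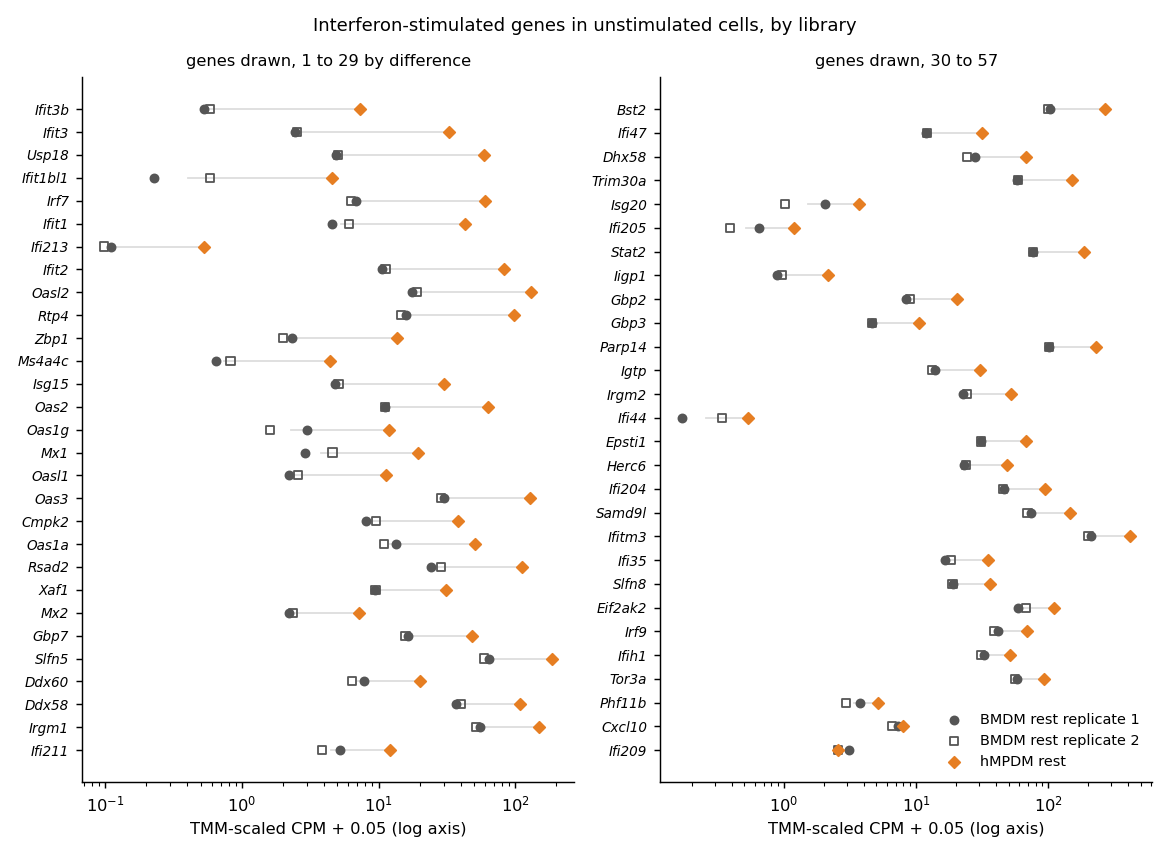
Levels of 57 of the 58 tested interferon-stimulated genes in the 3 resting libraries, in TMM-scaled CPM plus 0.05 on a log axis, ordered by their log2 difference over both panels. Grey circles and squares are the BMDM replicates and orange diamonds hMPDM, which lies right of both BMDM marks in every row except Ifi209.

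Promoters of the interferon-stimulated list were examined for an element of repeated GAAA, and the sequences of 4 Ifit neighbours on chromosome 19 are shown. They are the called members with the largest differences among those that hold the motif. That all 4 share it was thus set by the choice. Usp18 and Irf7 differed more than Ifit1 and are not among them. The motif searched was GAAA, any 2 bases and GAAA again, on either strand, in the 250 bases before the gene start (RefSeq, GRCm38.p6), and a match is only a match of letters. It occurred for 26 of the 47 list members in the promoter table (55.3%), against 329 of 9549 tested genes (3.45%) and 2.98% of all windows. The list holds known interferon-stimulated genes, a class served by such an element, so a high share in it does not rest on their levels here. Among members past the 2-fold test 17 of 26 held it (65.4%), and among members tested and not past it 9 of 20 (45%). Other higher genes held it in 11 of 97 (11.3%) and lower genes in 6 of 266 (2.26%). Each sequence below runs 5′ to 3′ towards the gene, and the capitals mark the motif, here as its reverse complement (TTTC, any 2 bases, TTTC).
Ifit3b (chr19:34607707-34607956, plus strand): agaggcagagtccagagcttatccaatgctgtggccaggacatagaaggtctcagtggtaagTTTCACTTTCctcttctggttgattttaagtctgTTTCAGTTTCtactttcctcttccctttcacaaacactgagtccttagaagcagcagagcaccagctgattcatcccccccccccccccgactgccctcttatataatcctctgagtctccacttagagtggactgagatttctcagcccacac
Ifit3 (chr19:34583279-34583528, plus strand): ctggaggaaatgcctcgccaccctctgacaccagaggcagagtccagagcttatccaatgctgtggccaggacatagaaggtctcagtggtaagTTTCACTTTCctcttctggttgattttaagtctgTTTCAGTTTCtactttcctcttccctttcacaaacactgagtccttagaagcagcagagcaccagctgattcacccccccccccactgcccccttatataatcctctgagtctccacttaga
Ifit1bl1 (chr19:34601969-34602218, minus strand): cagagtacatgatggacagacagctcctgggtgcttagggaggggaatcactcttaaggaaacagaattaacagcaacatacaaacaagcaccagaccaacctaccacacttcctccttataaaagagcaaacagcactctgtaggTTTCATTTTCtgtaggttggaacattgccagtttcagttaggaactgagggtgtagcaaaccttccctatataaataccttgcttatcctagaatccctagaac
Ifit1 (chr19:34640639-34640888, plus strand): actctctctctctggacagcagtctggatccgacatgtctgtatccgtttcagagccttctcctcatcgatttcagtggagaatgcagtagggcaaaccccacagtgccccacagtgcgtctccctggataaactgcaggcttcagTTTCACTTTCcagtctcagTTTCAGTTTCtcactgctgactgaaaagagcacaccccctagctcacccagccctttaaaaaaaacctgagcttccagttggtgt
Counted back from the RefSeq start, the matches began at -188 and -154 in Ifit3b, -156 and -122 in Ifit3, -104 in Ifit1bl1, and -104 and -85 in Ifit1. The paired matches of Ifit3b and Ifit3 hold the same letters. These RefSeq starts lay 0 to 18 bases from the starts in the counts table. The Ifit2, Ifit3, Ifit1bl1 and Ifit3b genes were also 1 of 6 runs of at least 3 neighbouring tested genes called in the same direction, spanning 34550694 to 34613401. A second higher run held Mndal, Ifi211 and Ifi203 of the Ifi200 family on chromosome 1 (173857220 to 173942672). The 4 lower runs included Rtl8a, Rtl8b and Rtl8c, near-identical copies on the X chromosome.

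Sterol and fatty acid synthesis genes were higher in hMPDM. All 22 tested members of the cholesterol biosynthesis list were higher by adjusted p (100%, against 19% of all genes), with a median log2 difference of 0.93, but 4 passed the 2-fold test. These were Mvd and Lss, enzymes of the pathway, at 73.1 and 65.8 against 183 CPM and at 136 and 125 against 295 CPM, Cyp51, a sterol demethylase, at 185 and 180 against 408 CPM, and Insig1, the sterol-regulated inhibitor of the pathway, at 214 and 202 against 508 CPM. The enzyme gene Hmgcs1 stood at 321 and 307 against 628 CPM (log2 1.00, SE 0.042). In all of these the hMPDM library lay above both BMDM libraries. The regulators differed less, Srebf2 by log2 0.42 and Srebf1 by 0.63. None of the 22 passed the 2-fold test with DESeq2 or with the coefficient of variation set at 10%, and 2 did without BMDM replicate 2, where the calls for Lss and Cyp51 ended.

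In the fatty acid list 14 of 16 genes were higher by adjusted p (87.5%, against 19% of all genes) and 1 lower (6.25% against 19.2%). The 2-fold test was passed by 5 upward (31.2% against 1.32%) and 1 downward (6.25% against 2.76%), and the median was 0.84. Scd1, the desaturase that makes monounsaturated fatty acids (ENSMUSG00000037071.2, chromosome 19, 44394451 to 44407709, mm10), stood at 15.3 and 14.9 CPM in BMDM and 164 CPM in hMPDM (log2 3.44, SE 0.067, adjusted p = 1.57e-22 against a fold of 2). Its relative Scd2 stood at 855 and 798 against 3045 CPM (log2 1.88, SE 0.043). The desaturase gene Fads2 was at 49 and 48 against 163 CPM, the acetyl-CoA synthetase gene Acss2 at 24.5 and 22.7 against 61.6 CPM and Acsl3, which activates long-chain fatty acids, at 74.7 and 73.0 against 179 CPM. Fasn, the fatty acid synthase gene, was at 335 and 306 against 661 CPM (log2 1.05), which did not pass the 2-fold test. Me1, an NADPH-producing malic enzyme, ran the other way at 6.81 and 5.47 against 1.08 CPM (log2 -2.48, SE 0.31). The calls for Acss2, Acsl3 and Me1 ended with DESeq2, and those for Scd2, Fads2, Acss2 and Acsl3 with the coefficient of variation set at 20%, while the call for Scd1 held in both.

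Lipid handling genes split. The cholesterol exporter genes Abca1 (286 and 282 against 721 CPM) and Abcg1 (34.1 and 33.1 against 87.4 CPM) were higher, while 3 genes of lipid uptake and transport were lower. Apoe, a lipoprotein component (ENSMUSG00000002985.11, chromosome 7, 19696109 to 19699166, mm10), stood at 162 and 169 CPM in BMDM and 25.5 CPM in hMPDM (log2 -2.70, SE 0.07, adjusted p = 1.61e-18 against a fold of 2). Lpl, lipoprotein lipase, stood at 800 and 800 against 144 CPM (log2 -2.47, SE 0.052), and the scavenger receptor gene Cd36 at 925 and 938 against 367 CPM (log2 -1.34, SE 0.044). Apoe, Abca1 and Abcg1 are all known LXR targets, and their differences had opposite signs. Over the 23 tested genes of the list 3 were called higher (13%, against 1.32% of all genes), the third being Scd2. In the other direction 3 were called lower (13% against 2.76%), and the median was 0.03. With the coefficient of variation set at 20% the calls for Abca1, Abcg1 and Cd36 ended, and that for Abcg1 also with DESeq2.

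**Figure D3:**
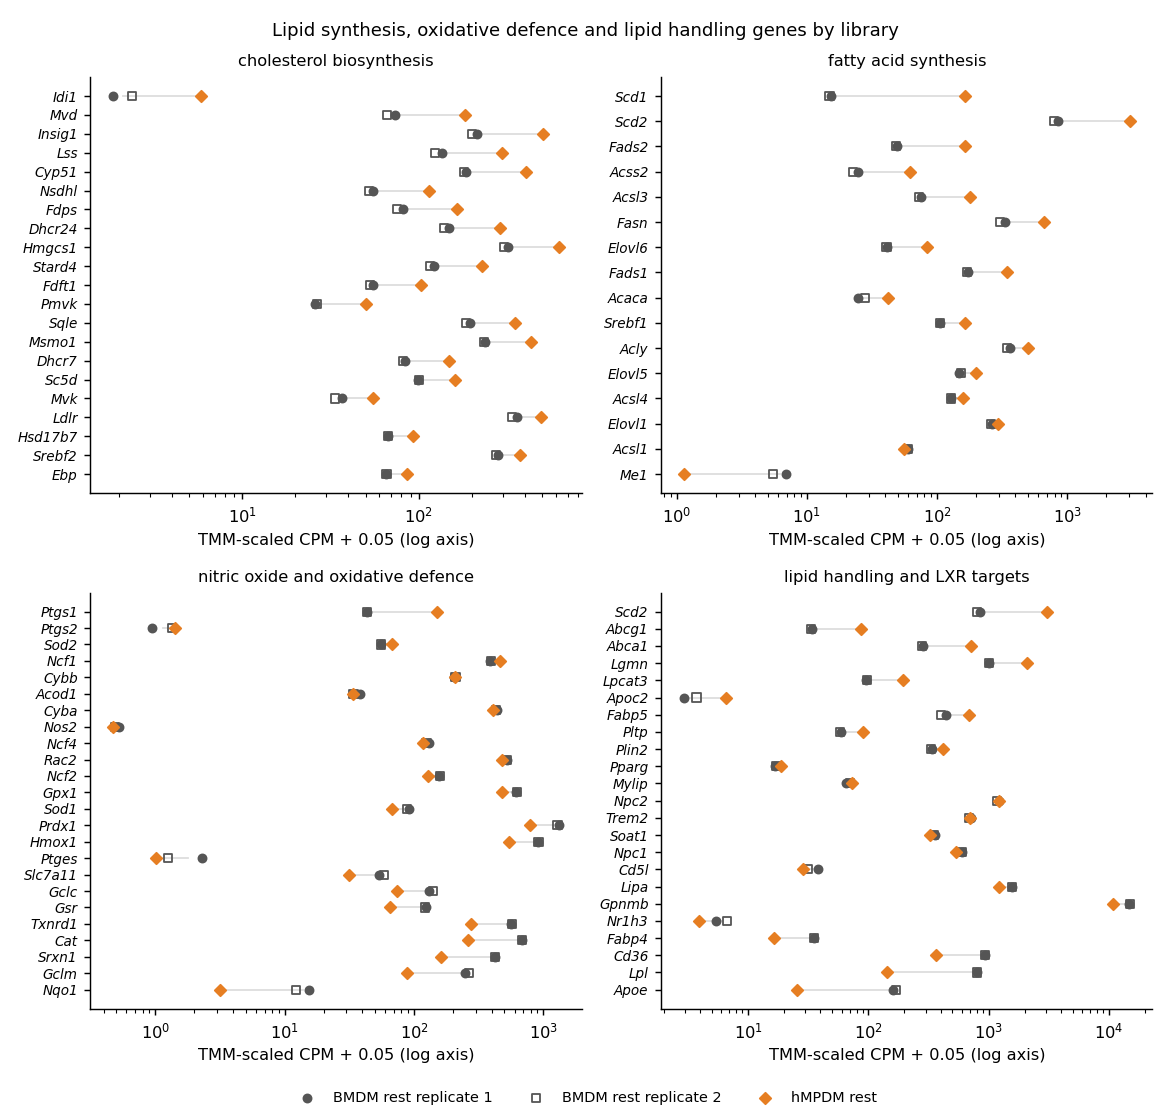
Levels in the 3 resting libraries, in TMM-scaled CPM plus 0.05 on a log axis, for tested genes of 4 lists (all but 1 of the cholesterol list), each ordered by log2 difference. Orange diamonds (hMPDM) lie right of both grey BMDM marks in all 21 cholesterol genes drawn, and left of both in 19 of the 24 oxidative defence genes.

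Oxidative defence genes were more often lower than higher. Of 24 tested, 4 were more than 2-fold lower (16.7%, against 2.76% of all genes) and 1 higher (4.17% against 1.32%). By adjusted p 14 were lower (58.3% against 19.2%) and 3 higher (12.5% against 19%), with a median of -0.39. Gclm, a subunit of the enzyme that makes glutathione's precursor, stood at 247 and 265 CPM in BMDM and 88.0 CPM in hMPDM (log2 -1.54, SE 0.057). Srxn1, which repairs oxidised peroxiredoxins, stood at 424 and 423 against 161 CPM, catalase (Cat) at 680 and 685 against 262 CPM and the quinone reductase gene Nqo1 at 15.4 and 12.2 against 3.13 CPM. Thioredoxin reductase (Txnrd1) was at 565 and 570 against 275 CPM (log2 -1.05) and heme oxygenase (Hmox1) at 903 and 917 against 538 CPM (log2 -0.76), without passing the 2-fold test. Gclm, Srxn1, Nqo1, Txnrd1 and Hmox1 are known targets of the transcription factor NRF2. The higher gene was Ptgs1, a prostaglandin synthase, at 43.2 and 43.2 against 150 CPM. With the coefficient of variation set at 20% the calls for Gclm, Srxn1, Cat and Ptgs1 ended, and with DESeq2 that for Nqo1.

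Of 13 iron genes 2 were called higher (15.4%, against 1.32% of all genes) and 2 lower (15.4% against 2.76%). Slc11a1, the metal transporter of the phagosome (ENSMUSG00000026177.7, chromosome 1, 74375195 to 74386062, mm10), stood at 259 and 260 CPM in BMDM and 53.6 CPM in hMPDM (log2 -2.28, SE 0.058, adjusted p = 9.19e-18 against a fold of 2). The iron-storage gene Fth1 was at 14119 and 14551 against 7642 CPM (log2 -0.91, SE 0.043, not past the 2-fold test). The transferrin receptor gene Tfrc, for iron uptake, was higher at 344 against 155 and 150 CPM, as was Cp, given above. The calls for Tfrc and Lcn2, the other lower gene, ended with DESeq2 and without BMDM replicate 2. Among 24 glycolysis and hypoxia-related genes 4 were called lower (16.7%, against 2.76% of all genes) and 0 higher. By adjusted p 13 were lower (54.2% against 19.2%) and 0 higher (against 19%), with a median of -0.26. Egln3, an oxygen-sensing prolyl hydroxylase, stood at 29.1 and 28.0 against 4.33 CPM (log2 -2.72), the angiogenic factor gene Vegfa at 159 and 162 against 55.4 CPM, the lactate exporter gene Slc16a3 at 100.4 and 92.8 against 34.9 CPM, and Pfkfb3, which promotes glycolysis, at 107 and 102 against 45.7 CPM. Of these the call for Egln3 held with DESeq2 and with the coefficient of variation at 20%, while those for Vegfa and Pfkfb3 ended in both. Scaled by library size the call for Pfkfb3 ended as well, as it did without BMDM replicate 1.

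The lower side was led by genes with almost no hMPDM reads, and 30 of the 344 had 0. Lipo3, a lipase family gene, stood at 10.3 and 14.1 CPM in BMDM (173 and 291 reads) and had no read in hMPDM, at least 68.9-fold lower against 3 counts. Reads may be shared among the near-identical Lipo genes. Sema3c, a secreted semaphorin, was at least 28.9-fold lower and Ube2e2, a ubiquitin-conjugating enzyme, at least 27.6-fold lower, both with 0 reads. Sel1l3 (ENSMUSG00000029189.6, chromosome 5, 53107084 to 53213452, mm10) stood at 51.3 and 52.6 CPM in BMDM and had 3 reads (0.180 CPM) in hMPDM, a BMDM to hMPDM ratio of 288.7 (95% counting interval 98.6 to 1401). Ly86, the MD-1 partner of the receptor CD180, stood at 20.9 and 20.3 CPM and also had 3 hMPDM reads, a ratio of 113.8 (38.8 to 553.2). Gdf3, of the TGF-beta family, had 276 and 319 reads against 2, and Plpp3, a lipid phosphatase, 138 and 167 against 1. Tceal8 stood at 42.8 and 46.0 against 0.541 CPM and Fkbp9, a peptidyl-prolyl isomerase of the endoplasmic reticulum, at 23.6 and 22.6 against 0.421 CPM. The remaining named lower genes, Ptgfrn, the heparan sulfate proteoglycan gene Gpc1, Rtl8b, the glutathione transferase gene Gsta3, the deubiquitinase gene Uchl1 and the lactate dehydrogenase gene Ldhb, had 2 to 7 reads in hMPDM against 93 to 304 in BMDM. All 15 of these calls held with DESeq2 and with the coefficient of variation set at 20%.

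Few LPS-sensing and inflammatory genes passed the 2-fold test at rest, though in some lists their share was above that of all genes. Of 25 genes of TLR signalling, 2 were more than 2-fold lower (8%, against 2.76% of all genes), Ly86 and Cd14, and 0 higher. By adjusted p 8 were higher (32% against 19%) and 6 lower (24% against 19.2%). Tlr4 stood at 103 and 101 against 148 CPM (log2 0.54, SE 0.051), its partner gene Ly96 at 8.13 and 10.4 against 11.9 CPM (log2 0.34, adjusted p = 0.0706), and Cd180, the receptor that Ly86 pairs with, at 433 and 460 against 488 CPM (log2 0.13). Among 18 cytokine genes the growth factor gene Csf1 (ENSMUSG00000014599.6, chromosome 3, 107741048 to 107760469, mm10) was higher at 291 against 56.6 and 62.8 CPM (log2 2.28, SE 0.053, adjusted p = 1.18e-18 against a fold of 2), and Il1rn, the interleukin 1 receptor antagonist, was lower at 32.4 against 87.9 and 92.2 CPM. These 2 were the calls in the cytokine list, each 5.56% of it, against 1.32% of all genes higher and 2.76% lower. By adjusted p 2 cytokine genes were higher (11.1% against 19%) and 4 lower (22.2% against 19.2%). Tnf stood at 50.0 and 47.6 against 32.1 CPM (log2 -0.60). Of 30 chemokine and receptor genes 1 was called lower (3.33%, near the 2.76% of all genes) and 0 higher. By adjusted p 11 were lower (36.7% against 19.2%) and 5 higher (16.7%, near the 19% of all genes), with a median of -0.35. Of 24 NF-kB genes 1 was called lower (4.17%, against 2.76% of all genes) and 0 higher. The lower gene was Trib1 (19.5 and 20.2 against 7.57 CPM), and its call ended with DESeq2. By adjusted p 8 of the 24 were lower (33.3% against 19.2%) and 5 higher (20.8%, near the 19% of all genes). The call for Il1rn ended at a coefficient of variation of 20%.

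Surface and uptake receptors differed in both directions. The scavenger receptor gene Marco stood at 15.3 and 10.7 CPM in BMDM and 0.721 CPM in hMPDM (log2 -4.13, SE 0.33), and Colec12, another scavenger receptor, was higher at 127 against 21.5 and 24.5 CPM (log2 2.46, SE 0.068). Of 14 C-type lectins, which recognise sugars, 3 were lower (21.4%, against 2.76% of all genes) and 1 higher (7.14% against 1.32%). They were the beta-glucan receptor gene Clec7a (20.5 and 20.8 against 5.29 CPM), Mgl2 (5.44 and 6.49 against 1.32 CPM), Clec4n (412 and 413 against 161 CPM) and, upward, Clec4b1 on 2, 7 and 36 reads. Among 21 Fc and related receptors Fcrls was higher at 300 against 73.6 and 67.4 CPM (log2 2.09), and Trem1 and Cd300ld were lower. These calls were 4.76% higher (against 1.32% of all genes) and 9.52% lower (against 2.76%). In the integrin and adhesion list, of 21 tested, 1 was called higher (4.76% against 1.32%) and 2 lower (9.52% against 2.76%). Itga4 was higher at 381 against 141 and 148 CPM. Among the lower was Itgax, the CD11c gene also counted among 16 complement genes. In the alternative activation list 4 of 16 were lower (25%, against 2.76% of all genes). These were Mgl2, Chil3 (19.3 and 19.3 against 6.25 CPM), the transglutaminase gene Tgm2 (1533 and 1534 against 561 CPM) and Fn1 (fibronectin). Mrc1, of the same list, was higher as given above. The lysosome list had Ctsh and Ctsf lower of 28 genes (7.14%, against 2.76% of all genes) and 0 higher. Ctsb and Ctsd, the top genes of these libraries at 2.19% to 2.26% of counts, differed by log2 -0.03 and -0.12. Of the calls in these receptor and protease lists, those for Marco, Colec12 and Fcrls held with DESeq2 and with the coefficient of variation at 20%. Each of the others ended in at least 1 of them, and Fn1 also without BMDM replicate 2 and when scaled by library size.

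Progenitor and HOX genes differed in both directions. Of 36 genes 28 were tested, and 3 were more than 2-fold higher (10.7%, against 1.32% of all genes) and 0 lower (against 2.76%). Besides Mecom these were Pbx3, a HOX cofactor, at 9.68 and 10.4 against 62.6 CPM (log2 2.64, SE 0.095), and Hoxb4, which expands blood progenitors when overexpressed (ENSMUSG00000038692.8, chromosome 11, 96318267 to 96321638, mm10), at 4.42 and 4.65 against 17.4 CPM (log2 1.93, SE 0.14, adjusted p = 1.82e-06 against a fold of 2). Hoxa9 had 6, 11 and 28 reads and Hoxa7 29, 35 and 81, higher by adjusted p and not by the 2-fold test. Meis1, their partner factor, ran lower at 4.60 and 3.20 against 1.80 CPM (log2 -1.08, SE 0.29). In the list 11 genes were higher (39.3%, against 19% of all genes) and 8 lower (28.6% against 19.2%) by adjusted p. The call for Hoxb4 ended with DESeq2 and with the coefficient of variation set at 20%, and those for Mecom and Pbx3 held.

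Cell cycle genes differed by small amounts. None of 33 mitosis genes passed the 2-fold test, but 29 were lower by adjusted p (87.9%, against 19.2% of all genes) and 0 higher (median -0.32), and all 33 lay below both BMDM libraries. The proliferation marker Mki67 stood at 769 and 821 against 538 CPM (log2 -0.56, SE 0.046) and the spindle gene Prc1 at 157 and 162 against 111 CPM. Of 34 G1/S and replication genes 9 were lower (26.5%, against 19.2% of all genes) and 1 higher (2.94% against 19%) by adjusted p (median -0.08). The replication licensing gene Cdc6 stood at 21.5, 23.1 and 22.8 CPM. Of 23 p53 targets and CDK inhibitors Sesn1 was called higher (81.9 and 79.8 against 224 CPM) and Cdkn1c lower (6.64 and 7.46 against 1.44 CPM), both of which ended with DESeq2. Each was 4.35% of that list, against 1.32% of all genes higher and 2.76% lower. By adjusted p 7 of the 23 were higher (30.4% against 19%) and 8 lower (34.8% against 19.2%). Of 24 stress genes 2 were called lower (8.33%, against 2.76% of all genes) and 0 higher. These were the early response genes Fosb (4.54 and 5.62 against 0.541 CPM) and Dusp1 (30.1 and 32.7 against 10.5 CPM), and both calls ended with DESeq2. By adjusted p the stress list went both ways, with 11 lower (45.8% against 19.2%) and 7 higher (29.2% against 19%). Hspa5, an endoplasmic reticulum chaperone, stood at 968 and 946 against 1767 CPM (log2 0.88).

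**Figure D4:**
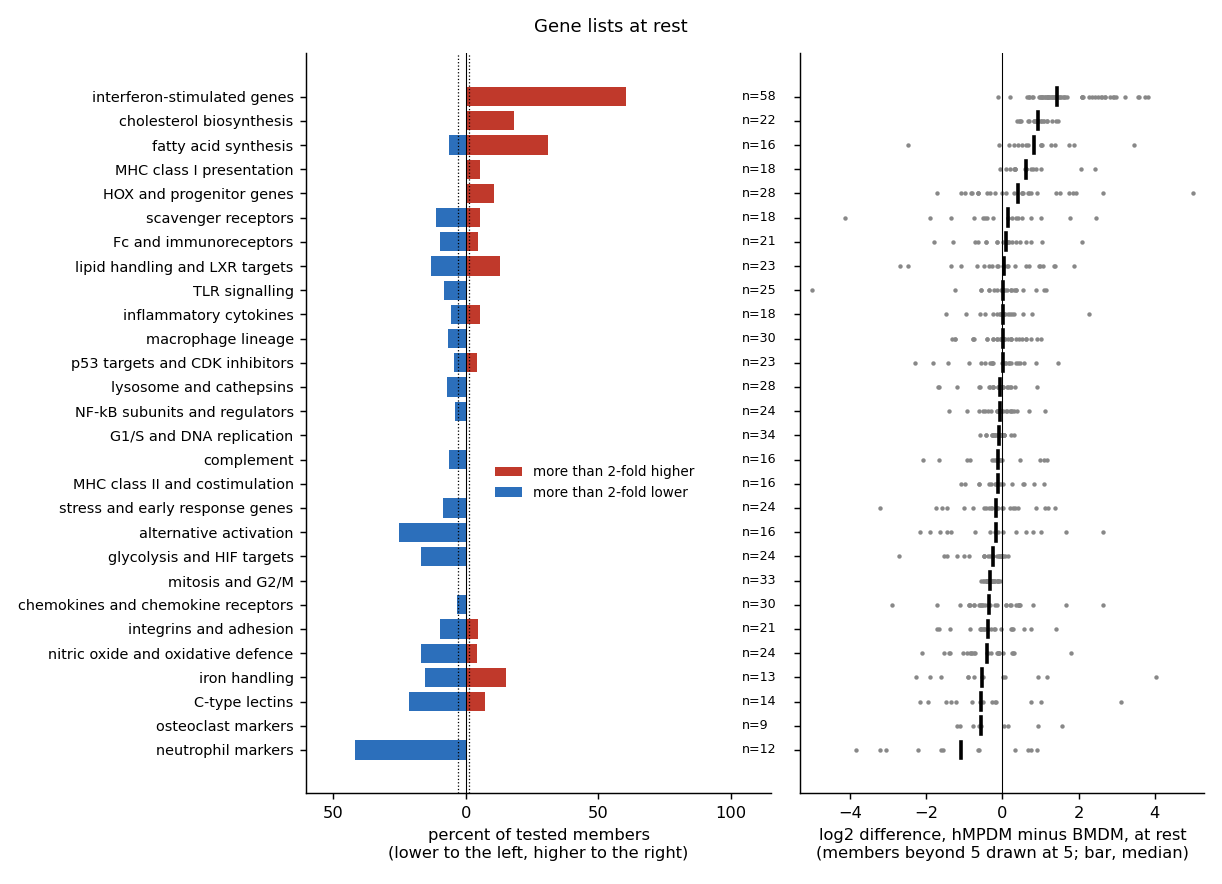
Lists with at least 9 tested genes, ordered by median. On the left, bars give the percent of tested members more than 2-fold higher (red, right) or lower (blue, left) in hMPDM at rest, with dotted lines at the 1.32% and 2.76% of all genes and the number tested beside; on the right each dot is a member's log2 difference and the black bar the list median, which runs from 1.44 for interferon-stimulated genes to -1.10 for neutrophil markers.

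Markers of other cell types ranged from no reads to high levels in these libraries. Of 16 neutrophil markers 12 were tested, and 5 were called lower (41.7%, against 2.76% of all genes) and 0 higher. Their summed levels were 133.8 and 139.1 CPM in BMDM and 78.5 CPM in hMPDM. Those called were the granule genes Ltf (4.54 and 4.41 against 0.301 CPM), Ngp (11.4 and 12.0 against 1.26 CPM) and Lcn2, and S100a9 (24.9 and 25.5 against 5.41 CPM) and S100a8 (14.8 and 19.4 against 5.89 CPM). The calls for Ngp and S100a9 held with DESeq2 and those for Ltf, Lcn2 and S100a8 did not. By adjusted p 7 of the 12 were lower (58.3% against 19.2%) and 4 higher (33.3% against 19%). The 4 higher markers were Prtn3 (log2 0.92), Ctsg (0.76), Mpo (0.66) and Csf3r (0.33), so the list went in both directions. Ly6g had 0, 1 and 0 reads. In bulk samples fewer cells of a type and less RNA per cell cannot be told apart, and the part of these markers in other results was not tested. Of 12 B cell markers 9 and of 14 T and NK cell markers 11 were below the filter, with Pax5, Cd3e, Cd3d and Cd3g at 0 in all 3 libraries. Ighm, the immunoglobulin heavy chain gene, was at 55.1 and 52.6 against 198 CPM (log2 1.88) and made up most of the summed B cell markers (58.6 and 56.5 against 201 CPM). Il7r, the interleukin 7 receptor gene, was at 166 and 172 against 117 CPM (log2 -0.53, not past the 2-fold test) and made up most of the summed T and NK cell markers (177 and 182 against 121 CPM), and Cd4 was at 10.04 and 9.50 against 2.34 CPM (log2 -2.05). Of 14 dendritic cell markers 7 were below the filter. Of the 7 tested 2 were called higher (28.6%, against 1.32% of all genes) and 0 lower. These were Kmo, on 15, 17 and 61 reads, and the interferon-stimulated Bst2. The calls for Ighm, Cd4, Kmo and Bst2 ended at a coefficient of variation of 20%. Pf4, the platelet factor 4 gene, was at 386 and 368 against 482 CPM (log2 0.36, not past the 2-fold test), nearly all of the summed erythroid and megakaryocyte markers (387 and 369 against 484 CPM). The summed osteoclast markers, some of which macrophages also express, stood at 449 and 438 against 332 CPM. No osteoclast, mast cell, fibroblast, erythroid or megakaryocyte marker passed the 2-fold test. Xist was expressed in all 3 libraries (1267, 1233 and 1361 CPM).

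By chromosome, median log2 differences lay between -0.019 and 0.022, and 1.69% (chromosome 14) to 7.35% (chromosome 6) of tested genes were called.

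The same genes were then read in the LPS libraries, whose levels do not enter the resting difference although they share in its fitted spread, 1 of hMPDM and 2 of BMDM after 3 h. There 90 genes were more than 2-fold higher (0.722%) and 125 lower (1%) in hMPDM. Of the 165 genes higher at rest 61 were called higher after LPS, and of the 344 lower at rest 92 were called lower, with 0 called in the opposite direction. The sign was the same for 157 of the 165 and 341 of the 344. The hMPDM LPS library was shallower (5510319 counts), and the named genes near silent in resting hMPDM had reads in it. The 15 named lower genes stood at 0% to 3.94% of the BMDM level at rest (median 1.22%) and at 1.46% to 22.2% after LPS (median 11.3%). Tceal8, for example, went from 0.541 to 5.67 CPM in hMPDM while BMDM had 37.0 and 37.5 CPM after LPS, whereas Gdf3 was at 0.218 CPM after LPS. Whether the hMPDM LPS library holds RNA of other cells was not tested, nor what part this shift has in the LPS differences and the shared calls.

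Called lipid and progenitor genes had the same sign after LPS. Scd1 stood at 7.56 and 9.25 CPM in BMDM after LPS and 123 CPM in hMPDM (log2 3.83). All 4 cholesterol genes called at rest were called after LPS, when 8 of the 22 passed (median 1.11), as were Mecom, Pbx3 (log2 3.38) and Hoxb4 (1.88), and Apoe, Lpl and Cd36 were called lower in both states. Of the 35 interferon-stimulated genes called at rest 5 were called after LPS, and the list median was 0.43. Ifit1 reached 2884 and 2702 CPM in BMDM and 2670.5 CPM in hMPDM (log2 -0.06), Irf7 388 and 395 against 760 CPM (log2 0.96) and Ifit2 3373 and 3156 against 4541 CPM (log2 0.48). The change of difference was tested in the same fit, and 31 genes in all passed a test for a change of more than 2-fold, Ifit1 among them (log2 -3.06, adjusted p = 5.84e-13).

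**Figure D5:**
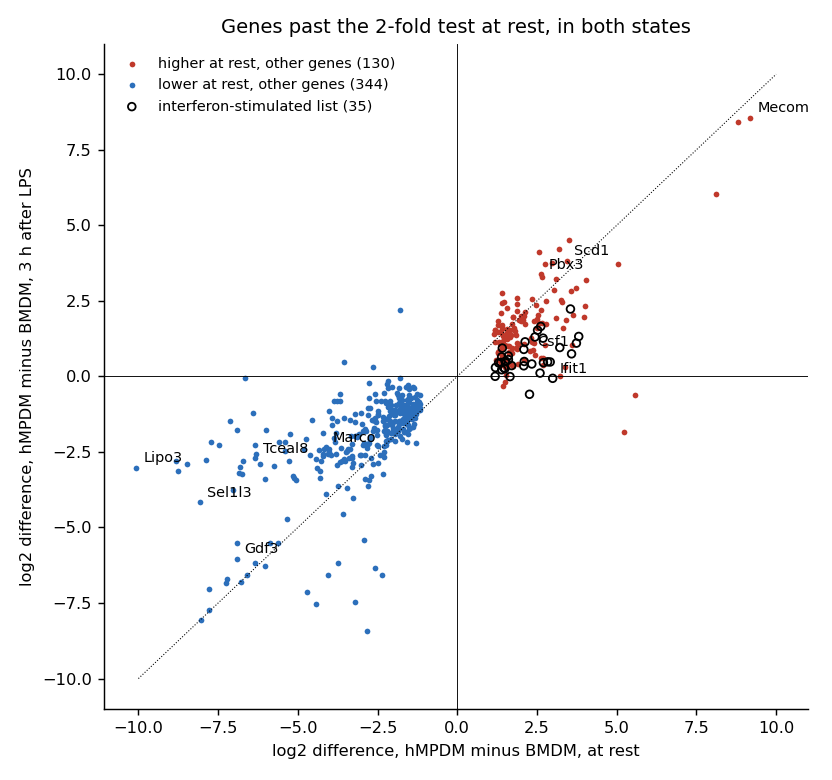
The 509 genes past the 2-fold test at rest, with their log2 difference (hMPDM minus BMDM) at rest on the horizontal axis and 3 h after LPS on the vertical axis; the dotted line marks equal differences. Red and blue points are higher and lower genes at rest and open circles the 35 interferon-stimulated ones, whose LPS differences (Ifit1, -0.06) lie mostly below the line, while Scd1 lies near it. Mecom had no reads in BMDM in either state, so the fit and not a measured ratio sets its place.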

How the data were processed

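PolyA RNA of 3 resting libraries was compared. The authors deposited raw read counts per gene (43346 genes, 10 value columns), with no normalization. Of these, 2 columns, headed hMPDM-0-1 and hMPDM-3-1 and so named as hMPDM at rest and after LPS, matched no labelled sample and were not used. Per the submitters' processing notes, cutadapt, STAR, SAMtools, bedtools and featureCounts were used with mm10, with no version. The library kit (KAPA) keeps strand, per the labels' protocols, but the strand setting of counting is not given in the sources used here, so overlapping and antisense genes may share reads.

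Counts were fitted in edgeR 4.0.16 (R 4.3.3, limma 3.58.1; filterByExpr, TMM, quasi-likelihood, 1 coefficient per group over all 8 libraries), which left 2 residual degrees of freedom that come from the replicated BMDM groups. Genes were called at a Benjamini-Hochberg adjusted p of 0.05, by the test against 0 ("by adjusted p") or against a fold change of 2 (glmTreat, "called" or "2-fold test"). Depth was 15318338 to 19307312 counts. An SE was derived from the log2 value and its F statistic (size over square root of F) and is no replicate error. For a group at 0 the fold is a bound that sets it to 3 counts, and for groups of 1 to 3 counts a ratio with an exact 95% interval is given; both cover counting error only. The size rule used a prior count of 2. Symbols were found for 42462 identifiers in a reference list of gene names, 884 had none, and 20 shared one with a more deeply counted identifier.

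Genes were picked for naming as the 15 largest differences per direction among genes past the 2-fold test with at least 5 CPM, up to 6 such members per list and direction, and fixed references. A further 36 genes were chosen after their values were seen (Ifnb1, Ifnar1, Ifnar2, Cxcl10, Tap1, H2-K1, Hmgcs1, Srebf1, Srebf2, Fasn, Txnrd1, Hmox1, Fth1, Mrc1, Maf, Lyz2, Ly96, Cd180, Tnf, Hoxa7, Hoxa9, Meis1, Prc1, Hspa5, Xist, Il7r, Pf4, Ctsb and Ctsd among them). Not all of the genes picked appear in the text. A few more members are named where a list is described, Prtn3, Ctsg and Mpo among them. The comparison, the lists and the tests were chosen with earlier results of these data known. Alternatives were other scalings, DESeq2 1.42.0, no filter, fewer libraries, a replicate block and a coefficient of variation set at 10% or 20%. Some genes are not reported here by name. The code was tested on simulated data.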

Additional observations from a re-analysis of the deposited data

Results flagged for a closer look

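For 10 of the named genes the difference between hMPDM and BMDM was not the same at rest and after LPS, by a test in edgeR of whether it changed by more than 2-fold. All 10 differences were smaller in size after LPS, and of the 8 that were above 0 at rest 7 belong to interferon-stimulated genes. Most named genes were chosen for large differences at rest, which by itself favours smaller ones in a second state. Interferon-stimulated genes also make up much of the named higher genes. The log2 difference after LPS minus that at rest was -3.06 for Ifit1 (adjusted p = 5.84e-13), -2.84 for Usp18 (5.84e-13), -2.63 for Ifit3 (7.67e-09), -2.49 for Ifit3b (0.00327), -2.44 for Ifit2 (2.74e-12), -2.35 for Oasl2 (4.9e-12) and -2.26 for Irf7 (2.94e-10). The growth factor gene Csf1 went from 2.28 at rest to 0.84 after LPS, a change of -1.44 (6.75e-05). For Sel1l3 the difference went from -8.08 to -4.17, a change of 3.91 (0.0406), and for Tceal8 from -6.33 to -2.72, a change of 3.62 (0.000653). These last genes belong to those that stood at a median of 1.22% of the BMDM level in hMPDM at rest and 11.3% after LPS, Sel1l3 at 5.60% and Tceal8 at 15.2% after LPS; the part of that shift in their change was not tested, nor whether the hMPDM LPS library holds RNA of other cells. No group had the 4 samples needed to look for a sample far from the others.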

How the results depend on the processing

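The counts of calls moved most with DESeq2, which changes scaling, spread and test together, and with the spread set by hand. By adjusted p, 649 genes were higher and 716 lower with DESeq2, 723 and 991 with the coefficient of variation set at 10%, and 266 and 454 at 20%. Past the 2-fold test, DESeq2 left 64 and 91 and the coefficient of variation of 20% left 73 and 177. Leaving out 1 BMDM library at a time gave 1880 to 2592 higher and 1983 to 2584 lower by adjusted p, and 142 to 172 and 303 to 369 past the 2-fold test. By the size rule, a fold of 2 gave 185 and 307 genes, and a minimum of 1 CPM gave 166 lower. The other scalings, no filter, the 3 resting libraries alone and the fit without RAW stayed within 1.5 times every count. With the replicate block 2115 and 2192 genes were called by adjusted p and 162 and 343 past the 2-fold test. Whether the replicate numbers pair the libraries was not settled. Replicate 1 minus 2 at rest correlated with that after LPS at -0.035 across genes, but replicates this similar leave little difference to correlate. Of 96 named genes past the 2-fold test 38 calls were lost with DESeq2, 24 and 46 with the coefficient of variation at 10% and 20%, 9 without BMDM replicate 2 at rest, 2 when scaled by library size, 1 with the block and 1 without BMDM replicate 1 at rest. Direction turned for 2 genes near 0. The log2 difference of Cdc6 was -0.022 with the block and ran from -0.020 to 0.086 when 1 library was left out. That of Ifnar2 was 0.013 when scaled by library size and with the block, 0.0032 without RAW, and -0.026 to 0.0026 when 1 library was left out. A count of 0 at this depth allows a level of up to 0.145 to 0.180 CPM.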
